A study of Mus musculus with 6 samples.

Results

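Heme is made by a short chain of enzymes, and 9 genes of that chain were followed here in mouse leukemic bone marrow: the 5-aminolevulinate synthases Alas1 and Alas2, the mitochondrial glycine carrier Slc25a38, the cytosolic enzymes Alad, Uros and Urod, and the terminal mitochondrial enzymes Cpox, Ppox and Fech. The members were chosen by name from the pathway, with earlier results of these data known, and are 9 of the 55487 genes in the deposited table. The step between Alad and Uros is not analysed here. Synthesis starts in the mitochondrion, where ALAS joins glycine to succinyl-CoA, passes through the cytosol, and ends in the mitochondrion, where ferrochelatase (Fech) inserts iron into protoporphyrin. Alas1 serves nearly all cells and is repressed by its end product, whereas Alas2 is the isozyme of red cell precursors and is induced by the erythroid factor GATA1.

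The samples were GFP+ cells from the femora and tibiae of C57BL/6 mice, 3 from recipients given PBS and 3 from recipients given pIpC (a synthetic double-stranded RNA, which cells answer with interferon, and interferon switches on the Mx1 promoter that drives Cre). In both groups the donor cells were CD45.2(+), carried Mx1-Cre, Brd9fl/fl and MLL-AF9 (the product of a chromosomal translocation found in acute myeloid leukemia), and were transplanted into CD45.1(+) CD45.2(-) recipients after irradiation, 1000 cells per recipient. pIpC at 20 mg/kg or PBS was injected 3 times, and the labels place collection 10 days after injection. Mx1-Cre acts in every cell that responds to interferon, and no group received pIpC without the floxed alleles, so that loss of Brd9 and the response to pIpC itself cannot be told apart. The paper describes the sorted cells as c-Kit+, the libraries as stranded and the irradiation as sublethal, whereas the labels state GFP+, unstranded and lethal (2 fractions of 450 cGy).

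Reads on genes ranged from 19277439 to 23586722 per library. PBS replicate 3 stood apart: its median absolute log2 difference from PBS replicates 1 and 2 was 0.621 and 0.602, against 0.127 to 0.178 for every other pair within a group, and results that rest on it are given with and without it. Brd9, the targeted gene, was not lower in the libraries labelled pIpC (1835 ± 176 normalized counts in PBS against 2103 ± 139, SD, n = 3 each; log2 fold change 0.20, standard error 0.13, adjusted p = 0.259, limma with Benjamini-Hochberg adjustment), so directions below are given by label. Counts of the whole gene do not show the floxed exons. Labels do not say whether the samples came from separate mice, so p-values measure only the spread between these libraries.

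The sequences shown are the stretches just upstream of the 3 members that rose and the iron-regulated element of Alas2, because GATA1 and iron are the textbook regulators of the erythroid pathway. They were taken from RefSeq on GRCm38.p6 as the 250 bases before the annotated start, 5′ to 3′ on the gene's strand, and bases lying in an exon of the same gene in GENCODE M21 were left out. Capitals mark GATA sites, searched on both strands as GATAA or GATAG after an A or a T.
Alas2, chrX:150547167-150547374, plus strand: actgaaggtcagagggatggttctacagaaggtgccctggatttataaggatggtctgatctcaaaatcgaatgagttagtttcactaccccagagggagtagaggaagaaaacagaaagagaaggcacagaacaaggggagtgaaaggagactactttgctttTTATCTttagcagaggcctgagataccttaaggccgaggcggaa
Cpox, chr16:58669958-58670207, plus strand: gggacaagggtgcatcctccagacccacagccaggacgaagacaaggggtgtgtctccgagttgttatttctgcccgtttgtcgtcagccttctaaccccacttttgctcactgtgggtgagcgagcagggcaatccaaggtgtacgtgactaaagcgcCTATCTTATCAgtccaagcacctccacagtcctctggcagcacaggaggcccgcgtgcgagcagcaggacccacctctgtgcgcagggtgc
Slc25a38, chr9:120110132-120110373, plus strand: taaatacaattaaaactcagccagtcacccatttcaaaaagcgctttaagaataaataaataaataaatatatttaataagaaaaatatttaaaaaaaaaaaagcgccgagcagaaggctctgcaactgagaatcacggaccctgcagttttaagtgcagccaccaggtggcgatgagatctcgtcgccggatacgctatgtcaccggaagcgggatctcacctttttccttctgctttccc

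The Alas2 window held 1 GATA match, 86 bases before the start, and the Cpox window held 2 that share 1 base, 91 and 86 bases before the start. The Slc25a38 window held none. Of 32851 windows of this length in the RefSeq table, 26.5% held a GATA match, so a match is common and is a description of the letters only. Both windows of Alas1 lay wholly or almost wholly in exons of Alas1 and are not shown. They held no GATA match, and the second held GCATGCG, the core letters bound by the mitochondrial gene regulator NRF1, on both strands of the same overlapping stretch, which 3.02% of windows held on either strand. Of the members not shown, Uros had 2 GATA matches in its second window, and Alad, Urod and Ppox had no match to either. No window of Fech was included.

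The leader of the Alas2 mRNA carries an iron-responsive element, the hairpin through which iron regulatory proteins hold back translation when iron is scarce. Its loop letters CAGTGN, after a C and 5 further bases, were found on the sense strand of the longer annotated leader, and bases 82 to 110 of that leader are shown with the loop in capitals.
Alas2 element: ctttggttcgtcctCAGTGCagggcaaca

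The same letters occurred in 8.21% of 41422 annotated mouse leaders and in no leader of the other members, Fech not included. Translation was not measured, so the counts that follow speak of mRNA alone.

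Of the 9 members, 3 rose and 2 fell from PBS to pIpC at an adjusted p under 0.1 (limma on log2(normalized count + 1), Benjamini-Hochberg adjustment over the 15020 genes whose mean normalized count reached 10). Alas2, Cpox and Slc25a38 rose, Alas1 and Fech fell, and Alad, Uros, Urod and Ppox did not pass. The background was high: 45.3% of all genes tested passed, 25% higher and 20.4% lower (3750 and 3058 genes), so 5 of 9 was near the share of genes at large. Under quantile normalization the genes at large split into 3244 higher and 4078 lower and their median moved to -0.12, while the same 5 members passed in the same directions. The median log2 fold change of the members was 0.20, against 0.01 over all genes tested. By place of work, 5 of the 6 mitochondrial members and none of the 3 cytosolic enzymes passed, a split that was not tested and that rests on PBS replicate 3: without it, 2 of the 3 cytosolic enzymes, Alad and Urod, passed too. The groups did not overlap in 5 members, against 56.8% of all genes tested.

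**Figure D1:**
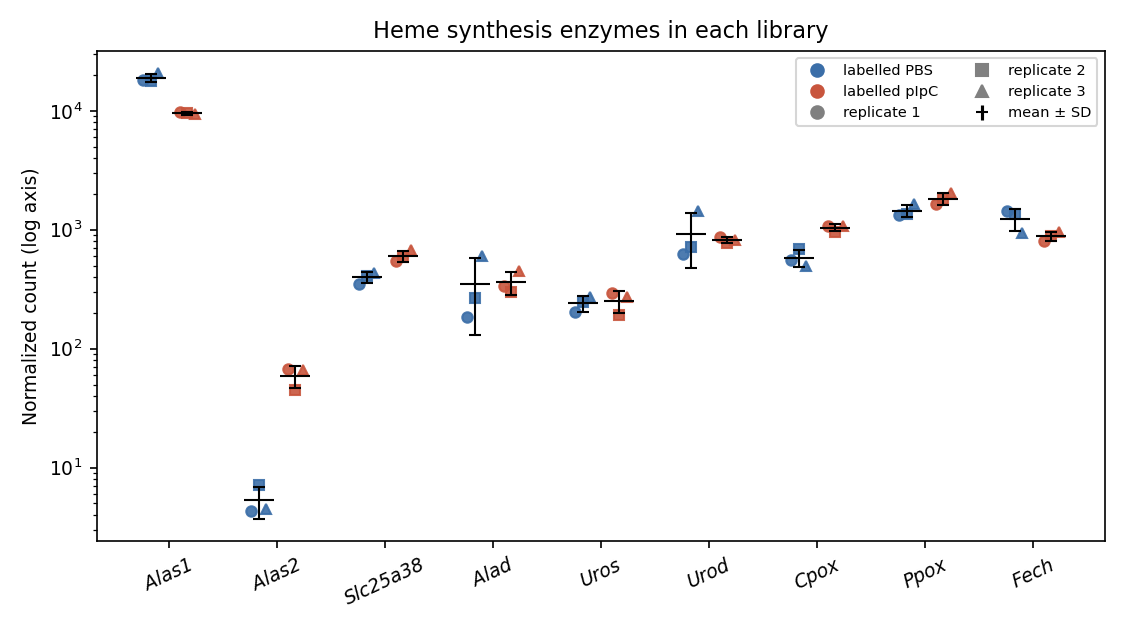
Normalized count (log axis) of each of the 9 genes in each library, in pathway order with the glycine carrier after the synthases; blue points are PBS libraries, red points libraries labelled pIpC, marker shapes give the replicate number, and black bars give mean ± SD (n = 3). Alas1 is the highest gene in every library and falls from 17958.3 or more to 9825.9 or less, whereas Alas2 rises from at most 7.1 to at least 45.

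Alas1 (ENSMUSG00000032786, chromosome 9, 106233455 to 106248654, minus strand), the housekeeping entry enzyme and the rate-limiting step outside red cells, had normalized counts of 18017.2, 17958.3 and 20763.8 in PBS replicates 1 to 3. In the libraries labelled pIpC it had 9825.9, 9490.4 and 9341.2. The groups were far apart and the pIpC values lay close together, with a mean of 9553 ± 248 (SD, n = 3) against 18910 ± 1603, or 0.505 of the PBS level. Its log2 fold change was -0.98 with a standard error of 0.13 (adjusted p = 0.00143, limma), and it stayed between -1.02 and -0.91 with each library left out. An antisense transcript, 4930500F10Rik, shares 465 of its 6174 exonic bases and had a mean of 14.1 normalized counts in PBS.

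Alas2 (ENSMUSG00000025270, chromosome X, 150547375 to 150570638, plus strand), the erythroid entry enzyme, moved the opposite way. It had normalized counts of 4.3, 7.1 and 4.5 in PBS and 66.9, 45 and 65.8 in the libraries labelled pIpC, which rest on 5, 7 and 4 reads against 67, 44 and 68. Every library labelled pIpC was well above every PBS library, and pIpC replicate 2 was the lowest of its group. The means were 5.31 ± 1.54 and 59.2 ± 12.3 (SD, n = 3 each), a ratio of 11.1, and its log2 fold change was 3.26 with a standard error of 0.34 (adjusted p = 0.000473, limma). Its PBS mean was under the filter of 10, so Alas2 was tested only because it was high in the other group, and its presence among the called members is no support for a change of the pathway. Its fold depended on the scale: pseudocounts of 0.1 and 10 gave log2 fold changes of 3.47 and 2.16, quantile normalization 2.58, and edgeR and DESeq2 on the recovered reads 3.44 and 3.48. Apex2 on the opposite strand shares 311 of the 2403 exonic bases of Alas2 and had 264 normalized counts in PBS and 210 in pIpC on average, so with unstranded libraries the few PBS reads of Alas2 cannot all be assigned with certainty.

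Even after the rise, Alas2 remained a minor isozyme. It made up 0.024%, 0.0394% and 0.0218% of the Alas1 and Alas2 reads in PBS and 0.676%, 0.471% and 0.699% in the libraries labelled pIpC. The 95% Wilson intervals reached at most 0.0814% in PBS and at least 0.351% in pIpC, and cover counting error only. The log2 ratio of Alas2 to Alas1 reads per kb of transcript went from -10.61 ± 0.35 to -6.57 ± 0.30 (SD, n = 3 each), a difference of 4.04, with no overlap between groups (2.60 with a pseudocount of 10 reads per kb in place of 1, exact permutation test, 2-sided p = 0.1, the smallest that 3 libraries against 3 allow). Intervals and ratio rest on the same few Alas2 reads, and Alas2 was included only through its high group. They are therefore no separate support for its rise. The summed normalized count of both isozymes fell from between 17965.4 and 20768.3 to between 9407 and 9892.8.

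**Figure D2:**
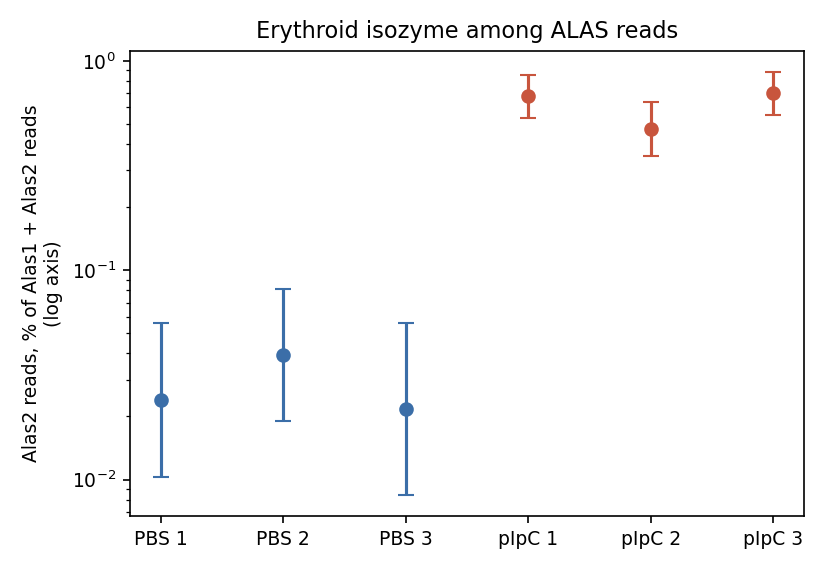
Alas2 reads as a percent of Alas1 and Alas2 reads (log axis) in each library, with 95% Wilson intervals for counting error. The PBS libraries lie between 0.0218% and 0.0394% and the libraries labelled pIpC between 0.471% and 0.699%, with no overlap of the intervals.

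Alas2 lies on the X chromosome, and Xist, the RNA that coats the inactive X, went from 51, 72.9 and 15.8 normalized counts in PBS to 18429.2, 26172.5 and 19942.4. Of 448 X-linked genes tested, 25.7% were higher and 15.2% lower, with a median log2 fold change of 0.15, against 0.01 over 14502 autosomal genes. The Y-linked genes Ddx3y, Kdm5d, Uty and Eif2s3y had at most 2 reads in any library. The part of these differences in the rise of Alas2 was not tested.

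Slc25a38 (ENSMUSG00000032519, chromosome 9, 120110374 to 120124504, plus strand) carries glycine into the mitochondrion for ALAS. Its normalized counts were 352.1, 406.9 and 434.6 in PBS and 540.9, 585.4 and 673 in the libraries labelled pIpC. The groups did not overlap, and the ratio of the means was 1.51 (log2 fold change 0.59, standard error 0.15, adjusted p = 0.0242, limma). The call was lost without pIpC replicate 3 (adjusted p = 0.112, limma), its highest library.

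The cytosolic enzymes did not pass, and their PBS libraries spread widely. Alad (ENSMUSG00000028393, chromosome 4, 62509169 to 62519918, minus strand), which joins 2 aminolevulinate molecules into porphobilinogen, had 186, 265.2 and 604.3 normalized counts in PBS and 333.4, 300.4 and 450.6 in pIpC. Urod (ENSMUSG00000028684, chromosome 4, 116989965 to 116994413, minus strand), which decarboxylates uroporphyrinogen, had 629, 710.6 and 1449.7 against 864.3, 780.6 and 821. In both genes PBS replicate 3 was the highest of all 6 libraries and the groups overlapped because of it. Their log2 fold changes were 0.20 (standard error 0.43, adjusted p = 0.741) and -0.08 (standard error 0.31, adjusted p = 0.865, limma for both). Without PBS replicate 3 both passed, Alad at 0.68 (adjusted p = 0.0194) and Urod at 0.30 (adjusted p = 0.0203), so that the sign of Urod turned.

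Uros (ENSMUSG00000030979, chromosome 7, 133686243 to 133710072, minus strand), which closes the ring as uroporphyrinogen III, had 201.6, 248 and 273.9 normalized counts in PBS and 291.4, 191.1 and 272.7 in pIpC. The groups covered the same range, and pIpC replicate 2 was the lowest of the 6. Its log2 fold change was 0.05 with a standard error of 0.22 (adjusted p = 0.878, limma), and it lay between -0.07 and 0.24 with each library left out, so that no direction can be given.

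Cpox (ENSMUSG00000022742, chromosome 16, 58670292 to 58717636, plus strand) returns the pathway to the mitochondrion by making protoporphyrinogen. It had 558.9, 684.2 and 499.1 normalized counts in PBS and 1083.9, 964.5 and 1084 in the libraries labelled pIpC. The groups were well separated at 580.7 ± 94.5 and 1044 ± 69 (SD, n = 3 each), a ratio of 1.80. Its log2 fold change was 0.86 with a standard error of 0.16 (adjusted p = 0.00556, limma) and stayed past the threshold with each library left out. Gpr15 on the opposite strand shares 204 of its 6661 exonic bases and itself rose from a mean of 2.84 to 29.2 normalized counts, beside a difference of 463.4 in Cpox, and its part in the value of Cpox was not tested.

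Ppox (ENSMUSG00000062729, chromosome 1, 171275990 to 171281186, minus strand), which oxidizes protoporphyrinogen to protoporphyrin, had 1328.1, 1366.5 and 1630.7 normalized counts in PBS and 1630.8, 1813.5 and 2043.3 in pIpC. The lowest library labelled pIpC and the highest PBS library were level, so the groups only just failed to overlap. The log2 fold change of 0.34 (standard error 0.14) missed the threshold in limma (adjusted p = 0.107) and passed in DESeq2 on the recovered reads (adjusted p = 0.0934) and without PBS replicate 3 (0.43, adjusted p = 0.00411, limma). B4galt3 on the opposite strand shares 791 of the 4515 exonic bases of Ppox and went from a mean of 413.6 to 1425 normalized counts. In unstranded libraries reads in that stretch cannot be told apart, and their part in the value of Ppox was not tested.

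Fech (ENSMUSG00000024588, chromosome 18, 64452914 to 64490251, minus strand), the last enzyme, had 1429.3, 1347.2 and 938.2 normalized counts in PBS and 799.4, 889.9 and 951.5 in pIpC. PBS replicates 1 and 2 were above all libraries labelled pIpC, but PBS replicate 3 was within their range, so the groups overlapped. Its log2 fold change was -0.47 with a standard error of 0.19 (adjusted p = 0.0945, limma). The call was narrow: it was lost when any library other than PBS replicate 3 was left out (adjusted p from 0.165 to 0.251) and became firmer without PBS replicate 3 (-0.66, adjusted p = 0.000267, limma).

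Without PBS replicate 3, 8 of the 9 members passed, 6 higher and 2 lower, beside 65.1% of all genes tested. Only Uros did not pass then. Leaving out pIpC replicate 3 instead left 3 members, Alas1, Alas2 and Cpox, beside 4750 of the 15020 genes tested. Those 3 members passed with each of the 6 libraries left out.

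**Figure D3:**
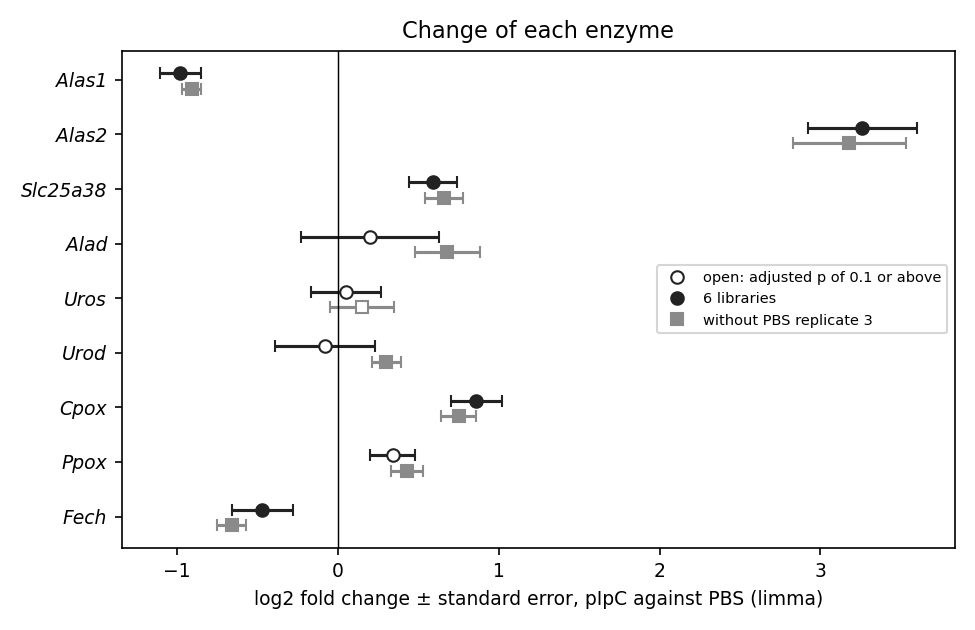
log2 fold change ± standard error (limma) of each enzyme, libraries labelled pIpC against PBS, over 6 libraries (black circles) and without PBS replicate 3 (grey squares); open symbols have an adjusted p of 0.1 or above. Alas1 and Fech lie below 0 and Alas2, Slc25a38, Cpox and Ppox above 0 in both, whereas Urod moves from -0.08 to 0.30.

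The libraries also ordered the members differently within a group. PBS replicate 3 held the highest PBS value of 6 members and PBS replicate 1 the lowest of 6. Among the libraries labelled pIpC, replicate 2 held the lowest value of 5 members (Alas2, Alad, Uros, Urod and Cpox) and the highest of none. The same library held the lowest pIpC value of 15 of 20 erythroid marker genes. How often each library was lowest or highest over all genes tested was not counted, so none of these counts can be called particular to these genes. Alad, Uros and Urod did not pass, and a link between the 2 lists was not tested.

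Per kb of the longest coding transcript, the pathway was dominated by its entry enzyme. In PBS, Alas1 had 5564 ± 472 normalized counts per kb (SD, n = 3), followed by Ppox with 791.7 ± 90.5, Urod with 624 ± 304, Alad with 282 ± 178, Slc25a38 with 222 ± 23, Fech with 188.4 ± 40.0, Cpox with 187.5 ± 30.5, Uros with 136.9 ± 20.8 and Alas2 with 2.61 ± 0.76. From Ppox to Cpox each gene's range met that of the next, so only Alas1 at the top and Alas2 at the bottom were set off from all others. Uros lay below the range of Cpox, the next above it, but its range met those of Fech and Alad. In the libraries labelled pIpC the order was Alas1 (2810 ± 73), Ppox (1005 ± 113), Urod (552 ± 28), Cpox (337.1 ± 22.3), Slc25a38 (334.9 ± 37.5), Alad (289.9 ± 63.3), Uros (142.9 ± 30.3), Fech (134.0 ± 11.6) and Alas2 (29.06 ± 6.06). Cpox, Slc25a38 and Alad did not differ beyond their spread there, nor did Uros and Fech. With the length of all merged exons instead, Urod stood above Ppox in PBS and Cpox below Alad in pIpC, Uros met the range of Cpox in PBS and Slc25a38 no longer met that of Fech, while Alas1 stayed highest and Alas2 lowest.

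**Figure D4:**
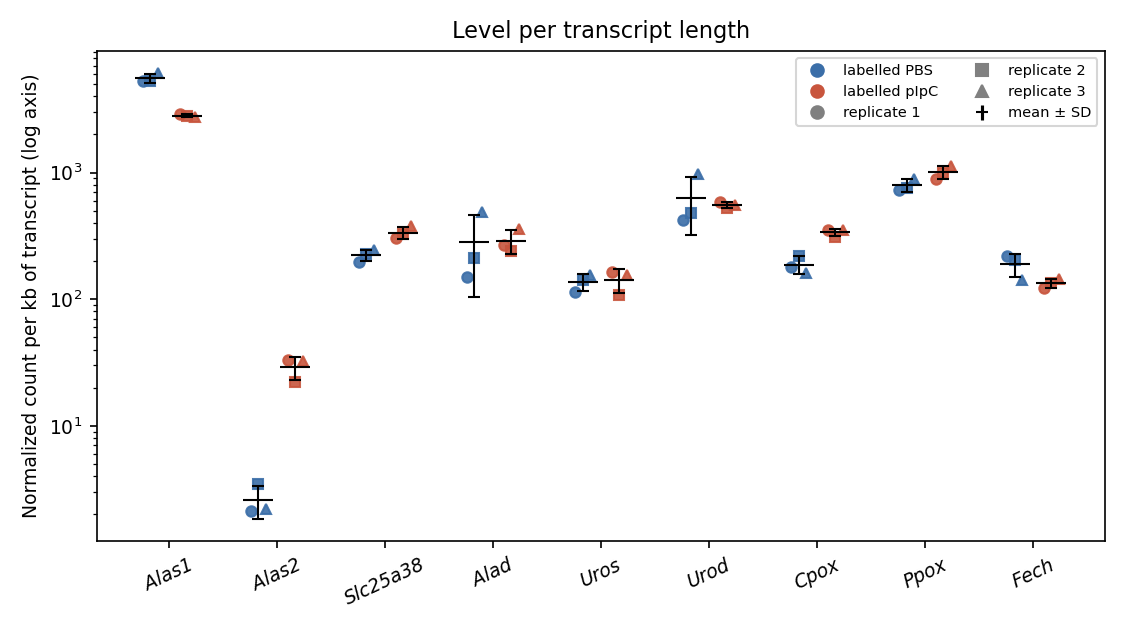
Normalized count per kb of the longest coding transcript (log axis) for each gene and library; colours, marker shapes and bars (mean ± SD, n = 3) are as in the plot of normalized counts. The gap between Alas1 and the next gene, Ppox, narrows from 5564 against 791.7 in PBS to 2810 against 1005 in the libraries labelled pIpC.

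The level of Alas1 relative to the rest of the chain narrowed with its fall. Alas1 held 66.6% to 72.5% of the summed level per kb of the 9 genes in PBS libraries and 47% to 51.6% in libraries labelled pIpC. Its level per kb was 6.82 to 7.27 times that of Ppox in PBS and 2.45 to 3.23 times in pIpC. Cpox, which feeds the last steps, stood at 0.83 to 1.13 times the level per kb of Fech in PBS and 2.30 to 2.88 times in pIpC. None of these ranges overlapped between the groups. The ratios are built from the values already given for each gene, so they are no separate support for a change. Taken alone, Ppox missed the threshold and Fech overlapped between the groups. Groups that do not overlap were common, at 56.8% of all genes tested.

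The genes whose pattern over the 6 libraries was closest to that of Alas1, by the root mean square difference of centred log2 values, were Naglu (0.044), Lamp1 (0.053), Ccdc91 (0.059), Rftn1 (0.059) and Commd10 (0.060). Naglu, a lysosomal enzyme, fell by 0.98 on the log2 scale and Lamp1, a lysosomal membrane protein, by 1.06. Those closest to Alas2 were Impdh1 (0.191), Epb41l3 (0.196), Cxcl12 (0.198), Inpp4b (0.210) and Plpp3 (0.215), none of them a gene of the erythroid list. The match to Alas2 was looser, and both lists rest mainly on the size of the group difference.

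Of 18 pathway regulators tested, 8 were higher and none lower (44.4%, beside 45.3% of all genes tested, with a median log2 fold change of 0.50 against 0.01). Tal1, an erythroid and stem cell transcription factor, rose most, from 3.5, 3 and 3.4 to 668.7, 667.2 and 671.1 normalized counts (log2 fold change 7.29, standard error 0.21, adjusted p = 1.25e-05, limma). Its PBS mean of 3.30 was under the filter of 10, so it was tested only because it was high in pIpC, and its direction was largely fixed. Pseudocounts of 0.1 and 10 gave log2 fold changes of 7.62 and 5.67. Chosen after their values were seen, GATA1's gene rose from 13.0, 13.2 and 15.8 to 281.5, 206.4 and 291.1, and that of the erythroid factor KLF1 from 7.8, 7.1 and 21.5 to 223.6, 158.4 and 258.2. Nrf1, named for its letters in the Alas1 window and also after its values were seen, did not pass, at 1042.6, 1036.5 and 1105.6 against 1102.9, 1049.3 and 1096.6. Without PBS replicate 3 the regulators counted 13 higher and 1 lower (77.8%, beside 65.1% of all genes tested).

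Carriers of porphyrins, heme and iron showed 4 of 15 tested higher and 1 lower (33.3%, beside 45.3% of all genes tested). Without PBS replicate 3 they showed 5 higher and 2 lower (46.7%, beside 65.1%). Tspo2, an erythroid membrane protein, had no read in any PBS library and 105.8, 74.6 and 159.6 normalized counts in pIpC, at least 37.7-fold higher against a floor of 3 reads per library. It too was tested only because it was high in pIpC, so its direction was largely fixed. Slc25a37 (mitoferrin-1), which brings iron to ferrochelatase, fell from 7852.7, 6797.9 and 4510.8 to 3454.3, 4041.8 and 3991.8 (log2 fold change -0.70, adjusted p = 0.0448, limma), a call lost when any library other than PBS replicate 3 was left out (adjusted p from 0.106 to 0.149). Chosen after their values were seen, Abcb10, its partner in the inner membrane, rose by 1.06 and Flvcr1, a heme exporter, by 1.09 on the log2 scale.

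Heme breakdown had 1 of 4 genes past the threshold (25%, beside 45.3% of all genes tested). Hmox1, the inducible heme oxygenase, went from 147.1, 180.2 and 174.3 to 1210.6, 1200.5 and 1883.7 normalized counts, with groups far apart (log2 fold change 3.06, standard error 0.21, adjusted p = 9.57e-05, limma). Hmox2, Blvra and Blvrb did not pass, and without PBS replicate 3 the list counted 2 higher and 1 lower (75%, beside 65.1%). Of 12 genes listed as markers of marrow macrophages, 10 were higher and 2, Adgre1 (F4/80) and Vcam1, lower (100%, beside 45.3% of all genes tested). The PBS mean reached 10 in 9 of the 12. Their summed normalized count was 11586 to 16373 in PBS and 10934 to 13453 in pIpC, ranges that overlap. Vcam1 and Adgre1, the 2 that fell, hold most of the PBS sum, so it does not show the rise of the other 10. Vcam1 went from 9264.7, 9984.2 and 6014.8 to 3909.4, 4326.8 and 5096.1. Spic, the factor of red pulp macrophages, rose from 5.2, 5.1 and 0 to 157.7, 118.5 and 202.1, and was tested only because it was high in pIpC (PBS mean 3.42). Adgre1 fell from 4337.3, 4427.3 and 4155.5 to 356.3, 267.7 and 304.6. The part of macrophages in the rise of Hmox1 was not tested.

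Substrate supply was mixed, with 3 of 10 genes higher and 2 lower (50%, beside 45.3% of all genes tested). Slc6a9, a plasma membrane glycine transporter of erythroid cells, rose from at most 3 reads per PBS library to 21, 20.4 and 21.3 normalized counts. With a PBS mean of 1.97, Slc6a9 was tested only because it was high in pIpC. Shmt1, which interconverts serine and glycine, fell by 0.45 on the log2 scale (adjusted p = 0.0247, limma, but 0.101 and 0.114 without pIpC replicate 2 or 3). Of 13 iron-sulfur cluster genes, 2 were lower and none higher (15.4%, beside 45.3% of all genes tested). Hscb, a co-chaperone of cluster transfer, was lowest at -0.89 (adjusted p = 0.0627, limma, and 0.135 to 0.182 with 1 library labelled pIpC left out). Without PBS replicate 3 the list counted 6 higher and 3 lower (69.2%, beside 65.1%). Of 3 genes that convert heme to heme A or attach it to cytochrome c, only Cox10 passed (33.3%, beside 45.3% of all genes tested). It fell by 0.46 (adjusted p = 0.0327, limma), a call lost when any library labelled pIpC was left out (adjusted p from 0.108 to 0.119). This list counted 2 lower without PBS replicate 3 (66.7%, beside 65.1%).

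Of 22 genes tested in a list of heme proteins and their partners, 4 were higher and 6 lower (45.45%, beside 45.3% of all genes tested, median log2 fold change -0.07). Without PBS replicate 3, 8 were higher and 7 lower (68.2%, beside 65.1%). The list also holds Uqcrfs1, Por and Txndc5, which do not themselves carry heme and did not pass. Mpo, the granule peroxidase of neutrophil precursors, rose from 5162.7, 5397 and 4775.6 to 143966.3, 129651 and 136560.4 normalized counts, while Ido1, a heme dioxygenase, fell from 18.2, 26.3 and 23.8 to 5, 1 and 2.9. The summed normalized count of the list was 39341 to 57104 in PBS and 214588 to 225763 in pIpC, and without Mpo and Cybb, the heme subunit of the phagocyte oxidase, it was 31297 to 50616 and 32482 to 34796. Over the same libraries the summed count of the 9 synthesis genes went from between 22707 and 26599 to between 15061 and 15703, a sum that Alas1 dominates.

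**Figure D5:**
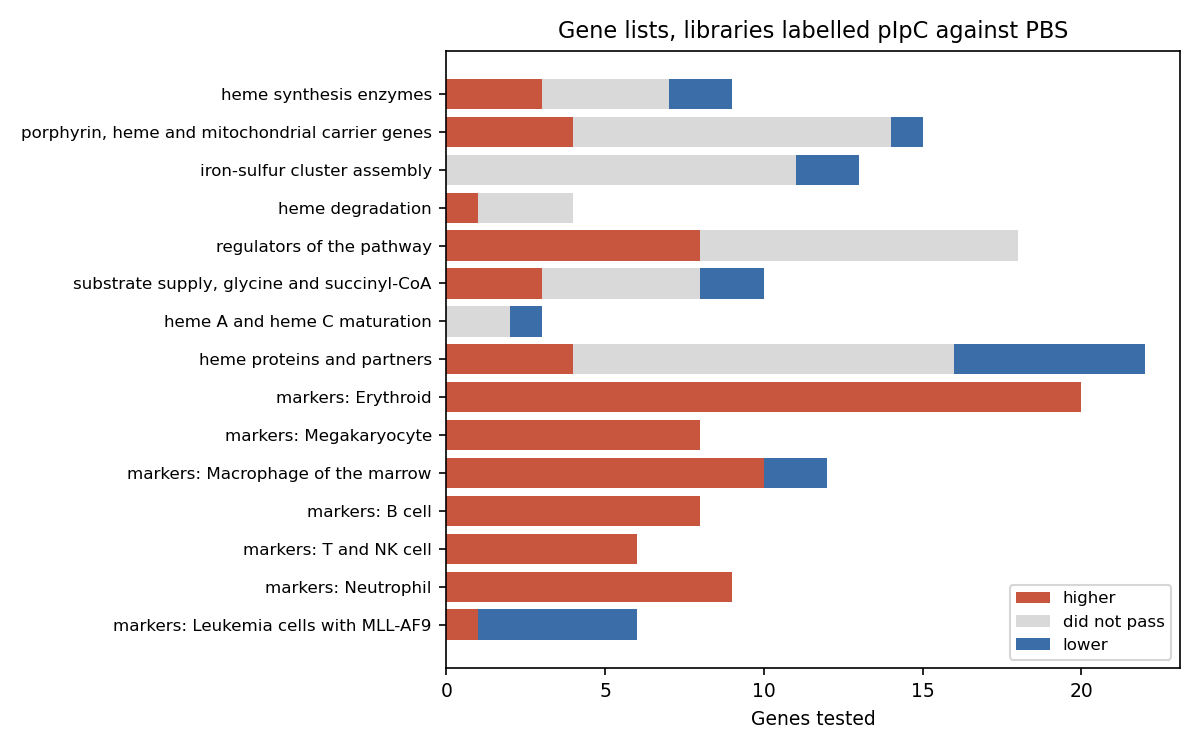
Number of genes tested in each list that were higher (red), lower (blue) or did not pass (grey) at an adjusted p under 0.1 (limma), libraries labelled pIpC against PBS. All 20 erythroid markers are higher, though the PBS mean reached 10 in only 4 of them, 5 of 6 leukemia genes are lower, and the 9 synthesis genes split into 3 higher, 2 lower and 4 that did not pass. Of all genes tested, 45.3% passed.

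Markers of other cell types moved with the groups. Beside 45.3% of all genes tested (25% higher and 20.4% lower), 100% of the markers tested in each list passed. Many had passed the filter only through the libraries labelled pIpC, so that their direction was largely fixed: the PBS mean reached 10 in 4 of 20 erythroid, 4 of 8 megakaryocyte, 2 of 8 B cell and 1 of 8 T and NK cell markers, but in 9 of 9 neutrophil markers. All 20 erythroid markers were higher, their summed normalized count going from between 405 and 514 to between 7911 and 10115, and some of them, such as Slc4a1, Rhag, Kel, Trim10 and Cldn13, had no read in any PBS library. Hbb-bs, a beta-globin, rose most, from 0.9, 1 and 2.3 to 1133.8, 679.4 and 791, though the globin genes are near-identical pairs among which reads can be split. In the libraries labelled pIpC, 18 of the 20 had a higher mean level per kb than Alas2. All 8 megakaryocyte markers (sums of 401 to 562 against 1692 to 2526), all 8 B cell markers (136 to 304 against 1284 to 2321), all 6 T and NK cell markers tested (179 to 319 against 3930 to 4533 over the 8 listed, and 12 to 23 against 199 to 229 without Nkg7, which holds most of that sum) and all 9 neutrophil markers (16227 to 36402 against 1892178 to 1963071) were higher too. Of 6 genes that mark MLL-AF9 leukemia cells, 5 were lower and Mef2c higher, and their sum went from between 14346 and 14747 to between 1755 and 1913. Mef2c had a PBS mean of 5.53, so it was tested only because it was high in pIpC. The largest changes in these lists, as log2 fold changes that depend on the pseudocount where PBS is near 0, were in Ppbp (8.28), Pax5 (7.41), Ncr1 (4.79), Ly6g (8.23), Mef2c (7.72) and Hoxa10 (-6.38). The part of these shifts in the values of the members was not tested, and in bulk samples fewer cells of a type and less RNA per cell cannot be told apart.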

How the data were processed

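RNA of 6 samples was poly(A)-selected. The deposited gene counts were divided by the authors by 1 size factor per library, so the values are a signal. The submitters' processing notes name HISAT2 2.2.1, SAMtools, Subread, featureCounts and edgeR with GRCm38, whereas the methods of the paper name nf-core/rnaseq with STAR and RSEM, and DESeq2. Every value above 0 (100% per library, tolerance 0.001 of a read) came out as a whole number of reads once divided by what 1 read is worth in its library, so reads were recovered.

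Symbols were matched for 55141 of 55487 genes, and lengths and positions came from GENCODE M21 on GRCm38. log2(normalized count + 1) was tested with limma 3.58.1 (R 4.3.3) with an intensity trend, for the 15020 genes whose mean reached 10, at a Benjamini-Hochberg adjusted p under 0.1. edgeR 4.0.16 (quasi-likelihood, 6901 genes called) and DESeq2 1.42.0 (7451 genes called) were run on the recovered reads. A gene with 3 reads or fewer in each PBS library was set to that floor for a fold.

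Named genes were the 9 members, Brd9, the largest rise and fall past the threshold in each list, and the 5 genes most like Alas1 and Alas2. Other genes (regulators, carriers, heme breakdown genes, Xist, Y-linked genes, genes sharing exonic bases with a member, and those that make up a list's sum or counts) were named after their values were seen. The members and lists were chosen with earlier results of these data known. Fits were also run on simulated data with far fewer changed genes than were called here. That run gives no error rate for these data. Same-numbered libraries' deviations correlated at -0.117, 0.143 and 0.041, so no pairing was used. Mfsd7c and Fdx2 were not matched to a row.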

Additional observations from a re-analysis of the deposited data

How the results depend on the processing

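Tried in turn were other pseudocounts (0.1, 10), filters (none, a mean of 50), scalings (quantile, median-centred) and tests (no trend, replicate block, edgeR, DESeq2), stricter calls (adjusted p under 0.05, or a 1.5-fold change as well) and leaving out each library. The count of members past the threshold ran from 3 to 8 with 1 library left out, beside 4650 to 9783 of the 15020 genes tested. The members' median log2 fold change ran from -0.07 to 0.43. edgeR gave a median of 0.05. Reversals of sign touched Alad (-0.17 to 0.68 with 1 library left out), Uros (-0.073 to 0.24) and Urod (-0.30 to 0.30). With the replicate block, the paired fit, 6095 genes and 4 members passed, Fech being lost (adjusted p = 0.155), no other member's call changed, Cox10 was lost among the list genes named (adjusted p = 0.108), and the ratio of Alas2 to Alas1 kept its direction in all its 8 alternatives. Fech was also lost with no filter, no trend or an adjusted p under 0.05. It was lost too when a 1.5-fold change was asked for as well, a cut that 4 members passed. Of 152 comparisons of a member with an alternative, 134 kept their direction and side of the threshold. Alas2 fell outside the filter at 50. The cause of these changes was not tested. Alas2 rests on 4 to 7 reads per PBS library, which limits how small its PBS level can be said to be.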
